A study of Mus musculus with 28 samples.

Results

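The antiviral TRIM genes described here are 10 named genes of the tripartite motif family (Trim12a, Trim12c, Trim14, Trim21, Trim25, Trim30a, Trim30b, Trim30c, Trim30d and Trim34a), chosen by name from the 54532 genes of a bulk RNA-seq count table. All 10 had counts in every culture. The cells were murine bone marrow-derived macrophages (BMDMs), grown from the marrow of C57/B6JB mice aged 8 to 12 weeks and incubated with plasma-derived von Willebrand factor (VWF) at 10 µg/ml, with the bacterial cell wall agonist lipopolysaccharide (LPS) at 100 ng/ml, or with PBS as control. RNA was taken after 3.5 h or 16 h, from 5 control, 5 VWF and 4 LPS cultures at each time, 28 in all. The labels call the cultures biological replicates without saying whether they came from separate mice, so p-values measure the spread between these cultures, which may be technical. All 8 macrophage markers checked exceeded 1 FPKM in every group, and the summed markers of T cells, B cells, mast cells and dendritic cells stayed at or below 0.58 FPKM in every culture. The summed markers of fibroblasts ranged from 0.823 to 29.6 FPKM and those of neutrophils from 0.176 to 9.14 FPKM, and their part in the results was not tested.

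TRIM proteins are named for a RING domain, which gives most of them ubiquitin ligase activity, followed by B-box and coiled-coil domains. In many, a SPRY domain at the C terminus recognises the target. Several restrict viruses directly or tune the sensors that detect them, and many of their genes are induced by interferon through the transcription factor complex ISGF3, which binds the interferon-stimulated response element (ISRE). In macrophages, LPS acts through Toll-like receptor TLR4, whose signalling leads to interferon β and from there to the interferon receptor.

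On the GRCm38 genome, 7 of the 10 genes lie within 263.4 kb of chromosome 7, from 104244457 to 104507849. Trim34a opens this stretch on the plus strand, and Trim12a, Trim12c, Trim30b, Trim30c, Trim30a and Trim30d follow on the minus strand. Trim21 lies elsewhere on chromosome 7 (102557921 to 102565486), Trim25 on chromosome 11 (88999376 to 89020293) and Trim14 on chromosome 4 (46493781 to 46536141). The annotated coding sequences of Trim12a and Trim12c were 96.4% identical over their aligned bases, and those of Trim30a and Trim30d 90.2%. Among the other pairs of Trim30 genes the identity ran from 82.8% to 85.8%. The annotated coding sequence of Trim30b has 609 bases, against 1488 to 1539 for the other Trim30 genes. That of Trim12a has 891, against 1491 for Trim12c. Identities with Trim30b or Trim12a therefore cover only a part of the longer sequence. The first 60 coding bases show how close these paralogs are. Capitals mark bases that differ from Trim30a, and the Trim30c stretch begins at coding base 4.
Trim30a: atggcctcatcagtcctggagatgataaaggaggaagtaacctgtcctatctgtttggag
Trim30d: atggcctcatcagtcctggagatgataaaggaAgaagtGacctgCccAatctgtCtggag
Trim30b: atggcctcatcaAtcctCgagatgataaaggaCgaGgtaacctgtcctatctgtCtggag
Trim30c: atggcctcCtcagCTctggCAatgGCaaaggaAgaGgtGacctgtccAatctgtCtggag
Trim30d and Trim30b each differed from Trim30a at 5 of these bases and Trim30c at 12. In the same window Trim12a differed from Trim12c at 2 bases, in capitals.
Trim12c: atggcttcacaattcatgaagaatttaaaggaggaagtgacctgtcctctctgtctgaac
Trim12a: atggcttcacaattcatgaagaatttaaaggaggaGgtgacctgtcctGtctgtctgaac

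**Figure D1:**
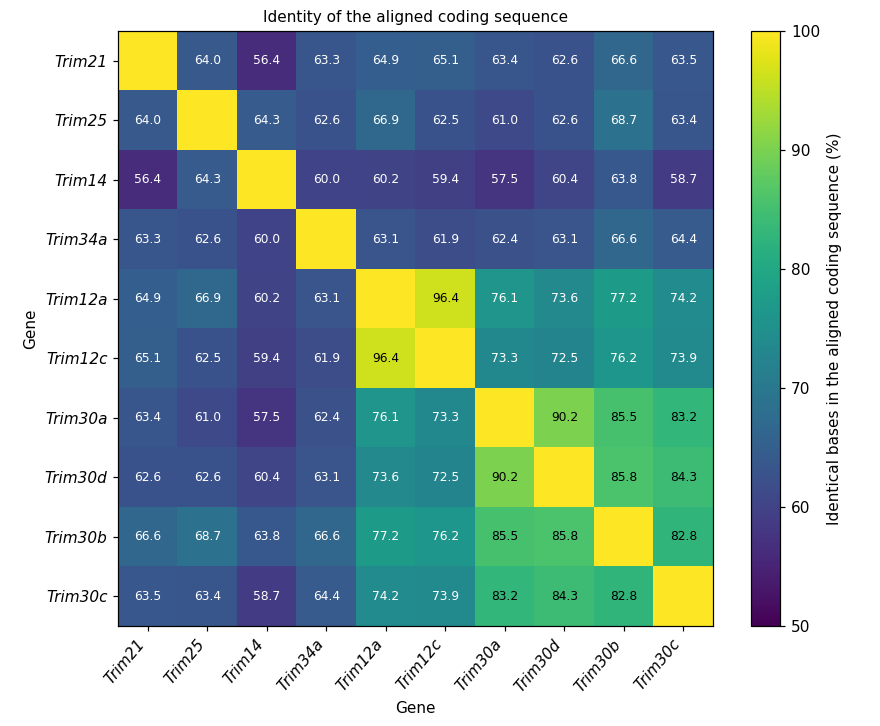
Percentage of identical bases in the aligned annotated coding sequences, for every pair of the 10 genes (axes, genes; colour and number, percent identity). Trim12a and Trim12c (96.4%) and the 4 Trim30 genes (82.8% to 90.2%) stand out from the other pairs. Values with Trim30b or Trim12a cover at most their annotated coding sequences of 609 and 891 bases.

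Long exact matches, which decide whether a read can be placed, were far rarer than the overall identity. Of all 100-base windows of its transcripts, Trim30a shared 4.41% with Trim30d, and Trim12c shared 8.05% with other genes, most of them with the non-member Trim5. No 100-base window of Trim21, Trim25, Trim30b or Trim30c occurred in another gene. Trim34a shared 39.0% of its windows, with its paralog Trim34b as the main partner (21.0%), and Trim14 shared 29.9%, mainly with Nans, the sialic acid synthase gene, whose exons overlap 31.26% of the Trim14 exon length on the opposite strand. An antisense gene, Gm47248, covers 23.5% of the Trim34a exon length and had 0 counts in every culture. Whether the counting used strand, and how it treated reads with several matches, is not given in the sources used here, so values of Trim14, Trim34a and Trim12c are uncertain to that extent. Trim34b reached at most 0.242 FPKM in any culture, Trim5 had group means from 1.32 to 4.11 FPKM, and Nans had group means from 8.82 to 20.3 FPKM. With LPS at 16 h the ranges of Nans (7.39 to 10.2 FPKM) and Trim14 (0.831 to 12.1 FPKM) overlapped.

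RefSeq promoter windows (GRCm38.p6, 250 bases before to 50 after a start site) were at hand for 9 of the 10 genes. The core of the ISRE, GAAANNGAAA on either strand, occurred in 7 of the 10 windows of these 9 genes, against 3.443% of all 32851 windows. The 7 windows belong to 6 genes. Trim30a had 2 windows, each with a match, and 1 of them is shown. The matches are shown with their surroundings, and capitals mark the match.
Trim21 (chr7:102565453-102565499, minus strand): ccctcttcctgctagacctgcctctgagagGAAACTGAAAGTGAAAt
Trim34a (chr7:104244437-104244486, plus strand): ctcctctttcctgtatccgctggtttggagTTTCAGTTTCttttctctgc
Trim12a (chr7:104315466-104315515, minus strand): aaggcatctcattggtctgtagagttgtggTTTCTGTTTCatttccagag
Trim12c (chr7:104353339-104353408, minus strand): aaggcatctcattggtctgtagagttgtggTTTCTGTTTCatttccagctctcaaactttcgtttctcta
Trim30a (chr7:104465190-104465259, minus strand): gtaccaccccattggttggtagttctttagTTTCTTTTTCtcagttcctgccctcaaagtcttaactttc
Trim30d (chr7:104507851-104507920, minus strand): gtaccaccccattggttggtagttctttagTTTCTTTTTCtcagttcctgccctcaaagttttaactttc
Trim21 held 2 overlapping matches that begin 13 bases past the start site. The stretches of Trim12a and Trim12c differed at 2 of 50 bases and those of Trim30a and Trim30d at 1 of 70, so the matches within each pair are not independent occurrences. Trim25, Trim30b and Trim30c held no such match in these windows. The Trim30b window (chr7:104358597-104358896) lies inside the annotated gene, which spans 104355382 to 104369884 on the minus strand. The annotated start of Trim30b, at 104369884, is outside this window, and the sequence there was not searched. The interferon γ element GAS, TTCNNNGAA, occurred in 1 of the 10 member windows (Trim30c) against 8.298% of all windows, and the AP-1 site TGAGTCA in 0 against 5.202%. These letters describe the windows and say nothing of binding.

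Library depth ranged from 41131209 to 77699206 counts. The trimmed-mean (TMM) scaling factors of the LPS cultures were 0.745 to 0.849 and those of the control cultures 1.04 to 1.25. Levels are given as FPKM (fragments per kilobase of exon, scaled to the total count of the culture multiplied by its TMM factor), and responses as log2 fold changes with their standard errors (SE). A gene was called at an adjusted p under 0.05 and a fold change over 2, by edgeR's quasi-likelihood test with Benjamini-Hochberg adjustment over all genes that reached 10 TPM in at least 1 culture compared. In a bulk sample, fewer cells that make an RNA and less of it per cell cannot be told apart.

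In control cultures at 3.5 h, the members spanned a wide range of levels. Trim25 (19.2 ± 1.98 FPKM, SD, n = 5) and Trim30a (9.74 ± 1.41 FPKM) were highest, and Trim30c (0.235 ± 0.0637 FPKM) and Trim30b (0.0530 ± 0.0192 FPKM) lowest. The annotated exon length by which Trim30b is divided, 7527 bases, is the longest of the 10. With LPS at 3.5 h, Trim30c stood at 134.2 ± 42.8 FPKM (SD, n = 4), near Trim25 (146.9 ± 8.64) and Trim30a (144.0 ± 16.9).

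**Figure D2:**
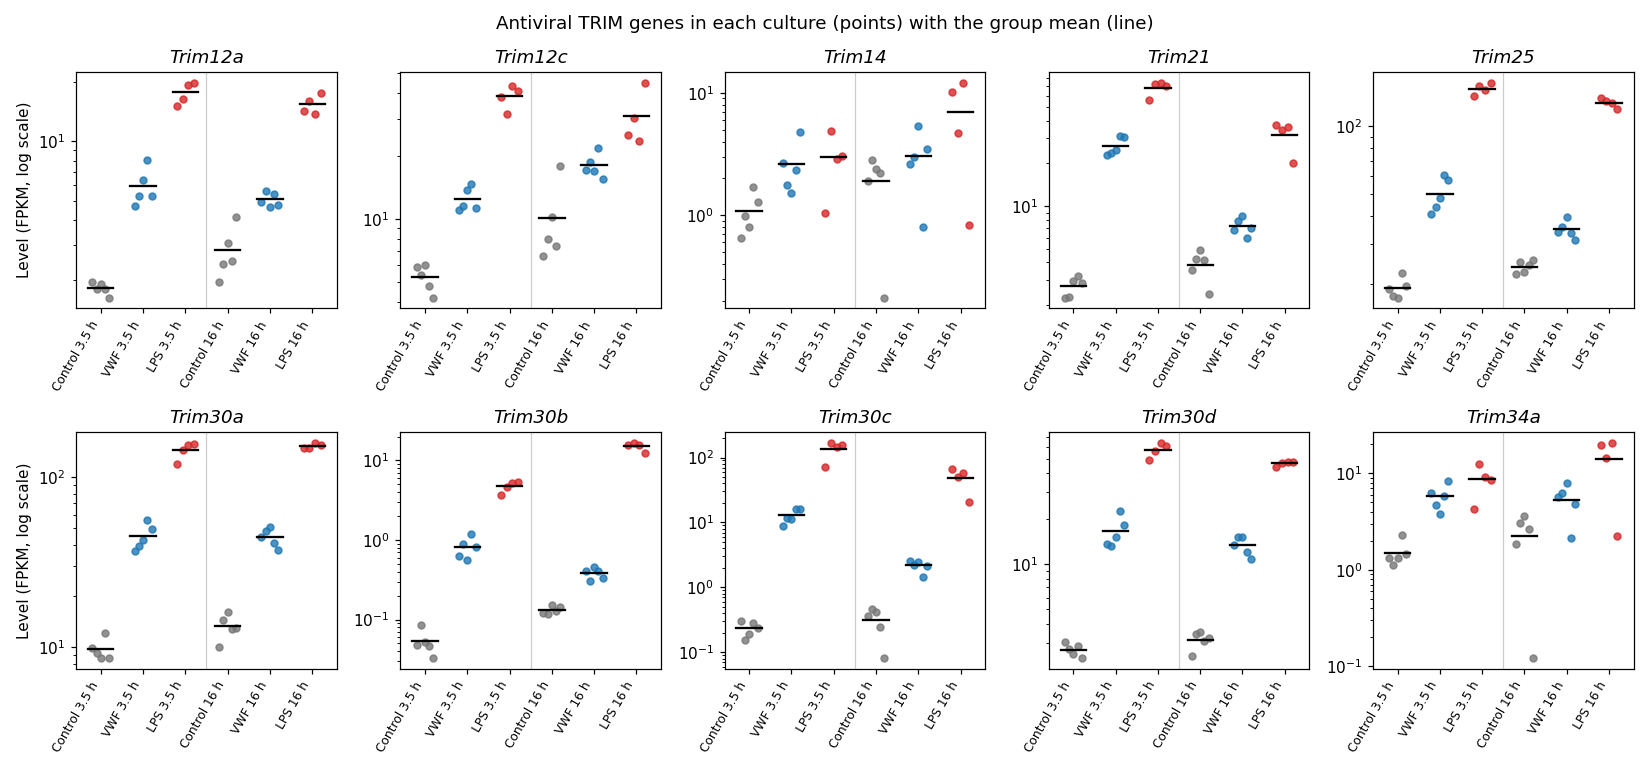
Level of each of the 10 genes in FPKM (log axis, range set per panel) in each of the 28 cultures (points, coloured by treatment) with the mean of each group (line), at 3.5 h left and 16 h right of the grey line. For 8 of the genes the LPS cultures lie above every VWF culture of the same time, whereas Trim14 and Trim34a spread widely within groups.

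At 3.5 h, VWF raised 9 of the 10 members past the threshold, where 9.1% of the 8200 genes tested were called higher and 5.59% lower. The median log2 fold change was 1.87 over these 9 genes and -0.01 over all genes tested. Trim30b stayed under 10 TPM in every culture of this comparison and was not among the genes tested. Of the 9, Trim12a, Trim14, Trim30c and Trim34a reached 10 TPM in VWF cultures only, so these 4 could enter the test through the higher group alone, and the count is a description.

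Trim25, the ubiquitin ligase that acts on the RNA sensor RIG-I, is the member with the highest control level. Its levels in the 5 control cultures were 19.0, 17.6, 17.4, 22.3 and 19.5 FPKM, and in the 5 VWF cultures 40.7, 43.7, 48.3, 60.9 and 57.7 FPKM. The groups did not overlap, and the log2 fold change was 1.30 (SE 0.12, adjusted p = 4.44e-06). Trim14, an adaptor of the mitochondrial protein MAVS that lacks a RING domain, had 0.647, 0.983, 0.797, 1.69 and 1.28 FPKM in control and 2.67, 1.76, 1.52, 2.36 and 4.81 FPKM in VWF cultures. These ranges overlapped, and the log2 fold change was 1.21 (SE 0.35, adjusted p = 0.0145). Trim14 reached 10 TPM in VWF replicate 5 alone and was not tested without it, and with all 6 groups in the fit its adjusted p was 0.113.

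Trim21, the cytosolic receptor for antibody-coated virus, had 2.26, 2.27, 2.94, 3.21 and 2.88 FPKM in control and 23.0, 23.6, 25.0, 31.3 and 30.7 FPKM in VWF cultures. Every VWF culture was above every control culture, with a log2 fold change of 3.22 (SE 0.13, adjusted p = 7.6e-09). This was the largest response to VWF outside the Trim30 genes.

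Trim30a, which dampens TLR signalling by promoting loss of the adaptors TAB2 and TAB3, rose from 9.93, 9.31, 8.67, 12.1 and 8.71 FPKM in control to 36.8, 39.5, 42.8, 56.2 and 49.7 FPKM in VWF cultures (log2 fold change 2.12, SE 0.14, adjusted p = 2.2e-07). Its closest paralog Trim30d rose from 2.39 to 3.05 FPKM in control to 13.3 to 22.5 FPKM (log2 fold change 2.52, SE 0.16, adjusted p = 1.62e-07). Trim30c rose from near the detection limit. Its control cultures held 0.308, 0.153, 0.191, 0.282 and 0.241 FPKM, or 14 to 37 counts, and its VWF cultures 8.93, 11.5, 11.2, 16.4 and 16.0 FPKM. The log2 fold change of Trim30c was 5.66 (SE 0.25, adjusted p = 1.37e-08), the largest of the 9. Trim30b lay at 0.0330 to 0.0849 FPKM in control (12 to 34 counts) and 0.568 to 1.18 FPKM in VWF cultures (207 to 467 counts). A fit without the level filter gave Trim30b a log2 fold change of 3.90 (SE 0.28, adjusted p = 1.45e-09).

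Trim12a and Trim12c are relatives of primate TRIM5, which restricts retroviruses. Trim12a had 1.62 to 1.93 FPKM in control and 4.69 to 8.05 FPKM in VWF cultures (log2 fold change 1.62, SE 0.14, adjusted p = 1.63e-06), and Trim12c had 4.21 to 6.04 against 11.0 to 14.6 FPKM (1.15, SE 0.12, adjusted p = 1.17e-05). Trim34a, another relative in the same cluster, had 1.31, 1.11, 1.33, 2.28 and 1.45 FPKM in control and 6.29, 4.67, 3.77, 5.80 and 8.28 FPKM in VWF cultures (1.87, SE 0.25, adjusted p = 8.34e-05). None of these 3 genes overlapped between the groups. With library size scaling the log2 fold changes of Trim12c (0.93) and Trim14 (1.00, to 2 decimals) fell just short of the 2-fold threshold.

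LPS at 3.5 h raised all 10 members, where 12.8% of the 8190 genes tested were called higher and 11.8% lower. The median log2 fold change was 3.54 over the members and -0.02 over all genes. Trim12a, Trim14, Trim30b, Trim30c and Trim34a reached 10 TPM in LPS cultures only. Trim30c stood at 71.9, 168.1, 143.4 and 153.6 FPKM, a log2 fold change of 9.09 over control (SE 0.31, adjusted p = 1.21e-09). Trim30b stood at 3.66, 4.68, 5.16 and 5.38 FPKM (6.43, SE 0.23, adjusted p = 1.36e-09), and Trim21 at 55.6, 72.8, 74.1 and 70.1 FPKM (4.61, SE 0.13, adjusted p = 3.17e-10). The smallest response was that of Trim14, with 1.05, 4.88, 2.88 and 3.05 FPKM (1.42, SE 0.39, adjusted p = 0.00763). Trim14 reached 10 TPM in LPS replicate 2 alone and was not tested without that culture, and its call was lost with library size scaling (0.87, adjusted p = 0.0662) and with all 6 groups in the fit (adjusted p = 0.054).

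The direct comparison of the agonists at 3.5 h put 8 of the 10 members lower with VWF than with LPS, where 6.71% of the 7500 genes tested were called lower and 4.71% higher. The difference was largest for Trim30c (log2 fold change -3.40, SE 0.26, adjusted p = 2.53e-06) and Trim30b (-2.55, SE 0.20, adjusted p = 3.71e-06), the latter of which reached 10 TPM in LPS cultures only. Of the other 6 called genes, Trim21 had the smallest difference (-1.37, SE 0.12, adjusted p = 6.69e-06) and Trim30d the largest (-1.81, SE 0.15, adjusted p = 4.8e-06). All 8 had VWF cultures entirely below the LPS cultures. Trim34a (-0.59, SE 0.30, adjusted p = 0.118) and Trim14 (-0.18, SE 0.43, adjusted p = 0.739) were not called and their ranges overlapped. A p that misses the threshold does not show that these levels were alike. Under library size scaling the sign of the Trim14 value turned (0.13).

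**Figure D3:**
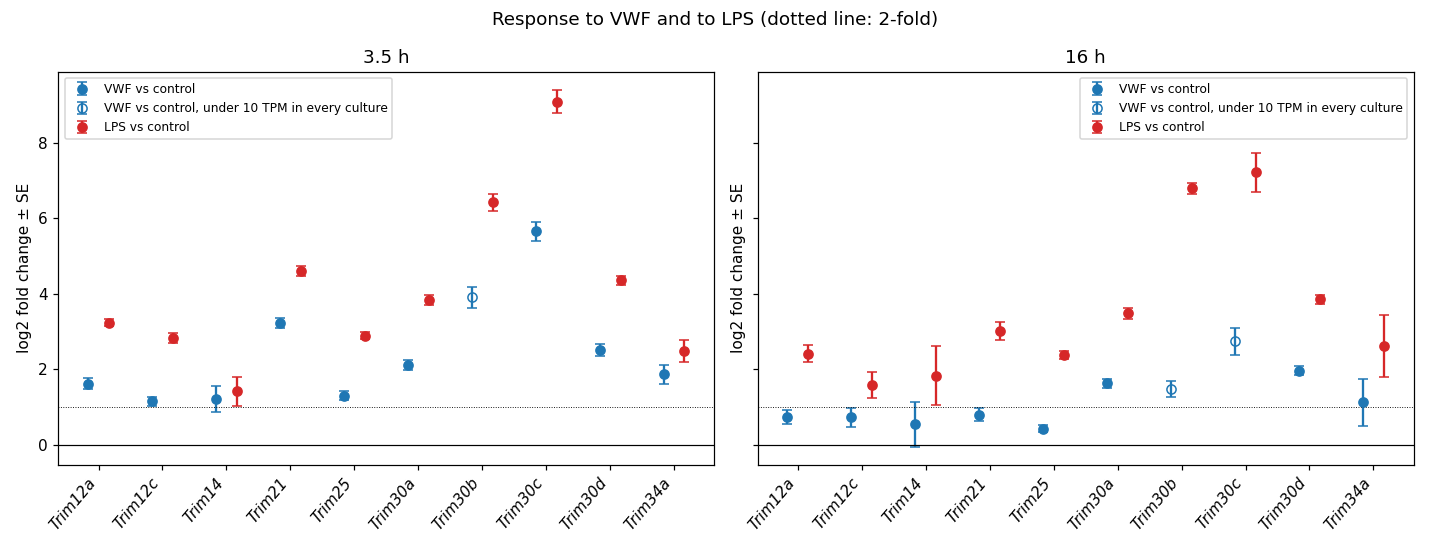
log2 fold change against control of the same time (vertical axis, points with SE bars) for VWF and LPS, per gene, at 3.5 h (left) and 16 h (right). Open points are genes under 10 TPM in every culture compared, from a fit without the level filter. Trim30b and Trim30c show the largest responses to LPS at both times.

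At 16 h, 2 of the 8 members tested were called higher with VWF, where 4.55% of the 7798 genes tested were called higher and 4.15% lower. They were Trim30a and Trim30d, the closest pair of Trim30 paralogs. Trim30a had 10.0, 14.5, 16.0, 12.8 and 13.1 FPKM in control and 44.6, 48.1, 50.9, 41.2 and 37.1 FPKM in VWF cultures (log2 fold change 1.63, SE 0.13, adjusted p = 7.74e-06). Trim30d had 2.46, 3.45, 3.54, 3.07 and 3.22 FPKM in control and 13.5, 15.1, 15.2, 12.0 and 10.8 FPKM in VWF cultures (1.97, SE 0.13, adjusted p = 2.24e-06). Neither gene overlapped between the groups.

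Trim21 (log2 fold change 0.79, SE 0.17, adjusted p = 0.0057), Trim12a (0.74, SE 0.19, adjusted p = 0.0129) and Trim25 (0.43, SE 0.08, adjusted p = 0.00241) were higher with VWF at an adjusted p under 0.05 but by less than 2-fold. Their groups did not overlap. Trim12a and Trim14 reached 10 TPM in VWF cultures only. Trim12c (0.73, SE 0.26, adjusted p = 0.0621), Trim14 (0.54, SE 0.60, adjusted p = 0.581) and Trim34a (1.13, SE 0.63, adjusted p = 0.235) did not pass. Without control replicate 5, Trim12c passed (1.06, adjusted p = 0.000135). Trim30b and Trim30c were under 10 TPM in every culture. Trim30c still stood at 2.59, 2.25, 2.50, 1.43 and 2.16 FPKM with VWF against 0.356, 0.471, 0.413, 0.243 and 0.0822 FPKM in control (2.74 without the filter, SE 0.36, adjusted p = 0.000114), and Trim30b at 0.305 to 0.460 against 0.118 to 0.153 FPKM (1.48 without the filter, SE 0.21, adjusted p = 0.00019).

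With LPS at 16 h, 9 of the 10 members were called higher than control, where 15.3% of the 7994 genes tested were called higher and 12.4% lower. The median log2 fold change was 2.82 over the members and -0.03 over all genes. Trim12a, Trim14, Trim30b and Trim30c reached 10 TPM in LPS cultures only. Trim30b stood at 15.8, 16.6, 15.5 and 12.5 FPKM, a log2 fold change of 6.79 (SE 0.14, adjusted p = 6.07e-09). Trim30c stood at 67.0, 49.4, 57.8 and 20.8 FPKM (7.22, SE 0.52, adjusted p = 2.53e-06). Trim25 stood at 119.4 to 133.6 FPKM against 22.1 to 25.6 FPKM in control (2.38, SE 0.10, adjusted p = 8.95e-08). Trim14 did not pass, with 10.2, 4.70, 12.1 and 0.831 FPKM (1.83, SE 0.78, adjusted p = 0.0754), and passed without LPS replicate 4 (2.20, adjusted p = 0.0185). Trim34a passed (2.62, SE 0.81, adjusted p = 0.0219), but its call was lost without control replicate 1 (adjusted p = 0.0515), LPS replicate 1 (0.0556) or LPS replicate 3 (0.0541). Library size scaling also lost this call (adjusted p = 0.056).

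Between the agonists at 16 h, 8 of the 10 members were lower with VWF, where 14.5% of the 7574 genes tested were called lower and 11.1% higher. The largest differences were again those of Trim30b (log2 fold change -5.33, SE 0.16, adjusted p = 1.95e-08) and Trim30c (-4.51, SE 0.34, adjusted p = 2.43e-06), both of which reached 10 TPM in LPS cultures only. Trim21, Trim25, Trim30a, Trim30d and Trim12a had log2 fold changes of -2.17, -1.89, -1.81, -1.84 and -1.63, in that order, with every VWF culture below every LPS culture. Trim12c was lower by less than 2-fold (-0.81, SE 0.20, adjusted p = 0.00523). Trim34a was called (-1.44, SE 0.56, adjusted p = 0.0464) with overlapping ranges, and its call was lost in 7 of the 9 fits that left out 1 culture, with adjusted p from 0.0726 to 0.118. The call was also lost with library size scaling (adjusted p = 0.146) and without the level filter (0.097). Trim14 was not called (-1.23, SE 0.68, adjusted p = 0.145) but was called with the replicate number as a block (-1.05, adjusted p = 0.00774) and without LPS replicate 4 (-1.60, adjusted p = 0.0162).

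Within the control cultures, 0 of the 6 members tested differed by more than 2-fold between 3.5 h and 16 h, where 4% of the 8333 genes tested were called higher at 16 h and 5.09% lower. Without the fold threshold, edgeR put 4 of them higher at 16 h at an unadjusted and at an adjusted p under 0.05. By that rule 3429 of the 8333 genes tested passed the adjusted p in either direction. With the fold threshold, edgeR called 0 members and DESeq2 called 1, Trim12c, at a log2 fold change of 1.004. By edgeR, Trim12c lay at the fold threshold (log2 fold change 1.00, SE 0.28, adjusted p = 0.0152). It was called when any of 7 single cultures was left out, with log2 fold changes from 1.01 to 1.13. Over all fits that left out 1 culture, the lowest value was 0.65. In control replicate 5 at 16 h Trim12c had 18 FPKM, where the other control cultures of that time had 6.62 to 10.2 FPKM. The other 4 members stayed under 10 TPM in every control culture. Among them Trim30b was higher at 16 h in a fit without the filter (1.31, SE 0.32, adjusted p = 0.0102), with ranges that did not overlap (0.0330 to 0.0849 and 0.118 to 0.153 FPKM).

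Within the VWF cultures, 2 of the 9 members tested were called lower at 16 h, where 12.2% of the 7927 genes tested were called lower and 9.15% higher. Trim21 fell from 23.0 to 31.3 FPKM at 3.5 h to 6.75, 7.84, 8.45, 5.97 and 7.02 FPKM at 16 h (log2 fold change -1.84, SE 0.12, adjusted p = 1.62e-07). Trim30c fell from 8.93 to 16.4 FPKM to 1.43 to 2.59 FPKM (-2.49, SE 0.21, adjusted p = 1e-06), and reached 10 TPM at 3.5 h only. Trim30b, under 10 TPM throughout, fell without the filter (-1.09, SE 0.20, adjusted p = 0.000254). Trim30a, by contrast, had 36.8 to 56.2 FPKM at 3.5 h and 37.1 to 50.9 FPKM at 16 h (0.03, SE 0.12, adjusted p = 0.83). Trim12c was higher at 16 h by less than 2-fold (0.59, SE 0.11, adjusted p = 0.000606). Trim25 was lower by less than 2-fold (-0.47, SE 0.11, adjusted p = 0.00332), with ranges that did not overlap.

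Within the LPS cultures, Trim30b was called higher at 16 h and Trim21 and Trim30c were called lower. The background was 14.6% of the 6987 genes tested called higher and 13.5% called lower. Trim30b rose from 3.66 to 5.38 FPKM to 12.5 to 16.6 FPKM (log2 fold change 1.75, SE 0.13, adjusted p = 6.12e-06). Trim30c fell from 71.9 to 168.1 FPKM to 20.8 to 67.0 FPKM (-1.39, SE 0.37, adjusted p = 0.00977). Trim21 fell just past the threshold (-1.04, SE 0.19, adjusted p = 0.00129), and by less than 2-fold without LPS 3.5 h replicate 2 (just short of the threshold) or LPS 16 h replicate 4 (-0.87). Trim30d was lower by less than 2-fold (-0.23, SE 0.09, adjusted p = 0.0389), with ranges that did not overlap.

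The change of each response with time was tested as an interaction. The VWF response was smaller at 16 h than at 3.5 h for Trim21 (log2 difference -2.39, SE 0.21, adjusted p = 3.56e-08) and Trim30c (-2.96, SE 0.43, adjusted p = 2.03e-05), 2 of 9 members tested, where 7.77% of 8660 genes were called lower and 5.69% higher. The LPS response was smaller at 16 h for Trim30c (-1.86, SE 0.54, adjusted p = 0.00954), Trim21 (-1.58, SE 0.26, adjusted p = 9.67e-05) and Trim12c (-1.24, SE 0.38, adjusted p = 0.0125), 3 of 10 members, where 12.8% of 8748 genes were called lower and 13.5% higher. Without control 16 h replicate 5 the Trim12c value was -0.89. Trim12a, Trim14, Trim30b and Trim30c reached 10 TPM in no control culture. They could enter these interactions through treated cultures alone, so the counts are a description. Between the agonists, the course from 3.5 h to 16 h differed most for Trim30b (log2 difference of VWF from LPS -2.80, SE 0.26, adjusted p = 1.23e-07), which rose with LPS while its VWF level went from 0.568 to 1.18 FPKM at 3.5 h to 0.305 to 0.460 FPKM. Trim30b reached 10 TPM in LPS cultures only and entered this test through them. Trim30c also differed (-1.13, SE 0.41, adjusted p = 0.03), making 2 of 10 members, where 14.3% of 8217 genes were called lower and 10.7% higher. The Trim30c difference lost its call in 6 fits that left out 1 culture (adjusted p 0.0529 to 0.0774: VWF 3.5 h replicates 4 and 5, LPS 3.5 h replicate 1, VWF 16 h replicate 4, and LPS 16 h replicates 1 and 3). With the counts of the 4 Trim30 genes summed, no change with time passed the 2-fold threshold, with log2 values of -0.15 for VWF over time (adjusted p = 0.33), -0.04 for LPS over time (0.797), -0.61 and -0.49 for the VWF and LPS interactions (0.0185 and 0.0374) and -0.14 between the courses (0.551).

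The order of the 6 groups was the same for several members. Trim25, Trim21, Trim30c, Trim30d and Trim12a each ran, from high to low, LPS 3.5 h, LPS 16 h, VWF 3.5 h, VWF 16 h, Control 16 h and Control 3.5 h. For Trim30a and Trim30b the LPS groups changed places, and for Trim12c the VWF groups did. Neighbours in this order overlapped in places. The Trim30a ranges of the LPS groups, of the VWF groups and of the control groups each overlapped between times, whereas no neighbouring groups of Trim30b overlapped. For Trim14 and Trim34a, all neighbouring groups overlapped.

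Trim14 and Trim34a varied most within groups. At 16 h, control replicate 5 had 0.211 FPKM of Trim14 and 0.122 FPKM of Trim34a, where the other 4 control cultures had 1.91 to 2.85 and 1.86 to 3.64 FPKM. LPS replicate 4 had 0.831 and 2.23 FPKM against 4.70 to 12.1 and 14.3 to 20.6 FPKM in the other 3 LPS cultures, and VWF replicate 4 had 0.794 and 2.12 FPKM against 2.61 to 5.35 and 4.80 to 7.98 FPKM. In each of these 3 groups the low culture had the highest share of counts on ribosomal protein genes, 9.58%, 4.57% and 7.16%, where the other cultures of the groups had 5.05% to 5.83%, 2.47% to 3.16% and 4.63% to 5.78%. LPS 3.5 h replicate 1, with 1.05 FPKM of Trim14 and 4.28 FPKM of Trim34a, was likewise lowest in its group for both genes and had the highest share (7.23%). Trim21 (2.38, 5.975, 19.95 and 55.6 FPKM) and Trim30c (0.0822, 1.43, 20.8 and 71.9 FPKM) were also lowest of their groups in these cultures. Values are given for control replicate 5, VWF replicate 4 and LPS replicate 4 at 16 h, then LPS replicate 1 at 3.5 h. VWF 3.5 h replicate 3 had the highest share of its group (6.50%) and the lowest Trim14 and Trim34a, but not the lowest Trim21 or Trim30c. In control at 3.5 h, replicate 3 had the highest share (6.92%), but Trim14 was lowest in replicate 1 and Trim34a in replicate 2. Trim12c ran the other way in control replicate 5, LPS replicate 4 and VWF replicate 4 at 16 h, where it was highest of its group (18, 44.9 and 21.9 FPKM). The part of this in the results was not tested. Without the most deviating culture of each group, Trim34a passed in VWF against control at 16 h (log2 fold change 1.05, adjusted p = 0.00196) and Trim14 in LPS against control at 16 h (1.91, adjusted p = 0.00031). Across the 28 cultures, log2 levels of Trim14 and Trim34a had a Pearson's r of 0.917, and those of Trim30a and Trim30d one of 0.994. The cultures share their groups, so these are descriptions.

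**Figure D4:**
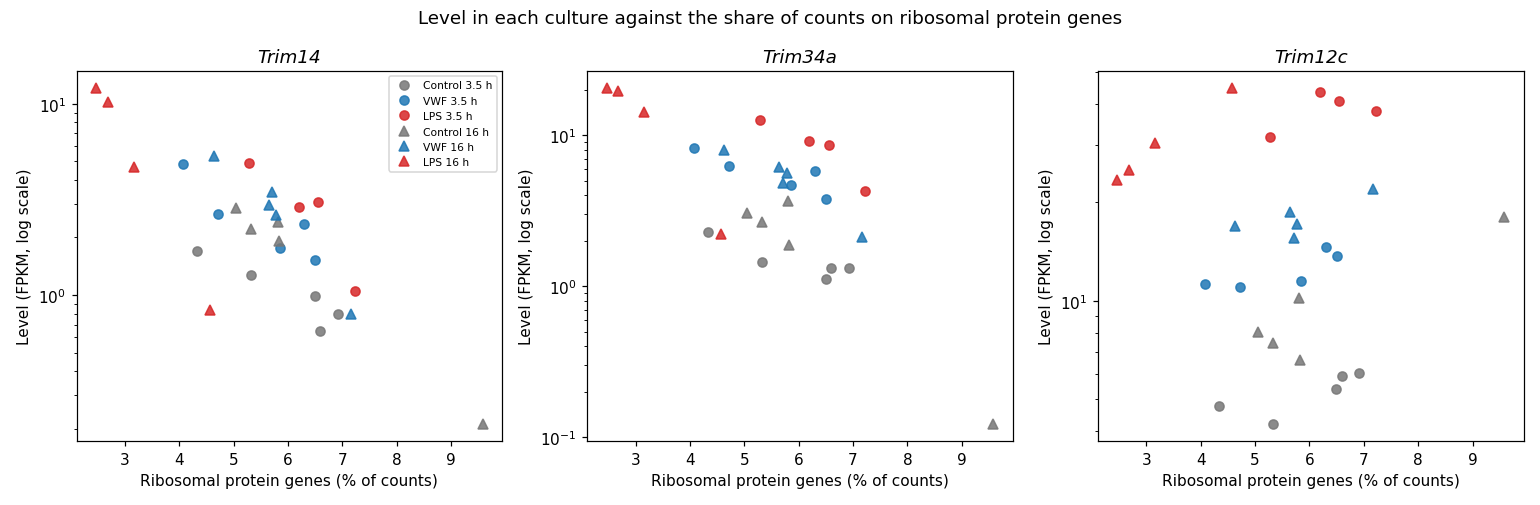
Level of Trim14, Trim34a and Trim12c (vertical axis, FPKM, log scale) against the share of counts on ribosomal protein genes (horizontal axis, percent) in each of the 28 cultures (colour, treatment; circles 3.5 h, triangles 16 h). Control 16 h replicate 5, at 9.58%, has the lowest Trim14 (0.211 FPKM) and Trim34a (0.122 FPKM).

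The genes whose log2 levels followed each member most closely over the 28 cultures, among 8867 genes and leaving out the other members, are given here as a description. Trim30a was closest to Parp12 (r = 0.995) and Ifi209 (0.994), Trim30d to Cxcl9 (0.991) and Ifi209 (0.99), Trim30c to Irgm1 (0.988) and Tnfsf10 (0.987), and Trim30b to Parp10 (0.986) and Cept1 (0.985). Trim21 was closest to Daxx and Gm8995 (0.992 each), Trim25 to Batf2 (0.991) and Tor1aip1 (0.986), Trim12a to Apobec3 (0.986) and Tlr3 (0.985), and Trim12c to Nectin2 (0.973) and Psmb9 (0.961). The closest genes of Trim14 (Tbc1d9b, 0.921, and Rhoa, 0.917) and of Trim34a (Pcsk7, 0.948, and Gm4070, 0.946) had lower values.

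Of 58 other TRIM genes, 17 were tested for VWF at 3.5 h, of which 3 were higher, 2 lower and 12 not called, and the median of their log2 fold changes was -0.17. The largest changes were those of Trim36 (2.30, SE 0.14, adjusted p = 1.05e-07) and Trim13 (2.00, SE 0.08, adjusted p = 6.06e-09). At 16 h, 1 of 15 was called with VWF, Trim59, which was lower (-1.49, SE 0.23, adjusted p = 0.000682). With LPS, 4 of 17 were higher and 3 lower at 3.5 h, and 2 of 16 higher and 3 lower at 16 h. Over all genes tested, VWF called 9.1% higher and 5.59% lower at 3.5 h, and 4.55% and 4.15% at 16 h. The shares for LPS were 12.8% higher and 11.8% lower at 3.5 h, and 15.3% and 12.4% at 16 h.

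**Figure D5:**
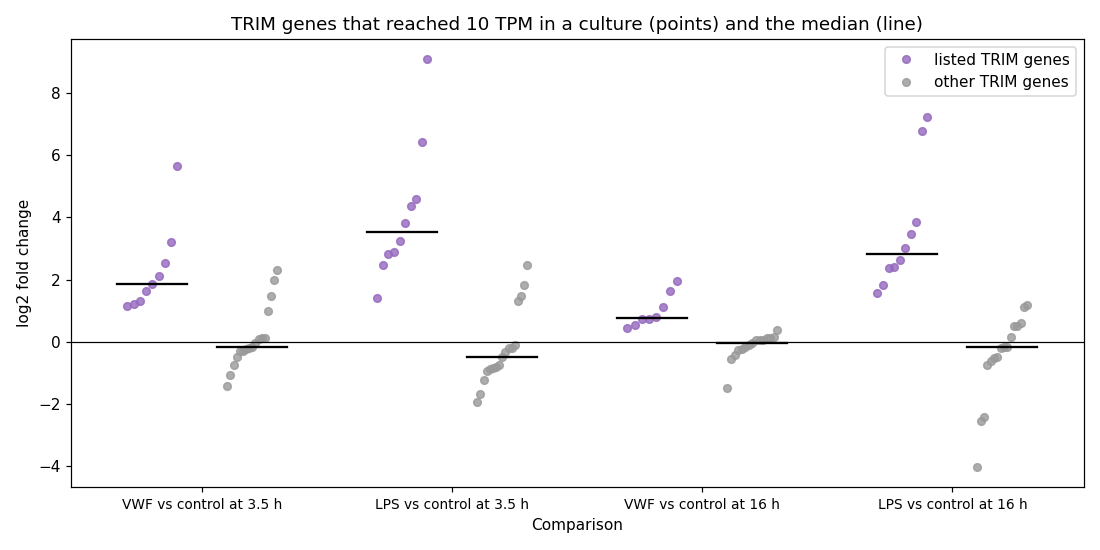
log2 fold change (vertical axis) of the listed and the other TRIM genes that reached 10 TPM in a culture compared (points), with medians (lines), for 4 comparisons with control. The medians of the listed genes are 1.87, 3.54, 0.77 and 2.82, and those of the other TRIM genes -0.17, -0.49, -0.05 and -0.17.

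The sensors and adaptors that TRIM proteins act on responded in part. Of 25 genes listed for the RIG-I, cGAS and TLR pathways, 22 were tested for VWF at 3.5 h, with 10 called, each of them higher. The median log2 fold change was 0.49. Among those higher were the RNA sensors Ifih1 (3.79, SE 0.18, adjusted p = 2.22e-08) and Ddx58, which encodes RIG-I, the substrate of Trim25 (2.73, SE 0.20, adjusted p = 4.96e-07), their relative Dhx58 (1.63, SE 0.11, adjusted p = 3.32e-07), and Tab2, the target of Trim30a (1.13, SE 0.08, adjusted p = 4.34e-07). With LPS at 3.5 h 13 of 22 were higher, and at 16 h 5 of 21 with VWF and 10 of 20 with LPS. Of 12 genes of type I interferon receptor signalling, 10 were higher with VWF at 3.5 h, with a median of 2.60. They included Stat2 (3.23, SE 0.18, adjusted p = 5.89e-08) and Irf9 (1.76, SE 0.07, adjusted p = 4.38e-09), both parts of ISGF3, and the feedback inhibitors Socs1 (6.03, SE 0.26, adjusted p = 1.25e-08) and Socs3 (7.32, SE 0.40, adjusted p = 6.23e-08). At 16 h 4 of 10 tested were higher with VWF, and with LPS 9 of 12 at 3.5 h and 10 of 11 at 16 h. Over all genes tested, the shares called higher were 9.1% (VWF) and 12.8% (LPS) at 3.5 h, and 4.55% (VWF) and 15.3% (LPS) at 16 h.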

How the data were processed

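The authors sequenced mRNA libraries (paired reads), aligned them with STAR to GRCm38 (mm10), and deposited raw counts per gene. The annotation, strand setting and treatment of multiply mapped reads are not stated in the sources consulted. From these counts, edgeR 4.0.16 (R 4.3.3; quasi-likelihood, robust, TMM) was fitted to the groups of each of 12 comparisons, over genes with at least 10 TPM in 1 culture, with calls at an adjusted p under 0.05 and an absolute log2 fold change over 1. FPKM and TPM use the union exon length of GENCODE M21, and 54495 of 54532 genes matched. Coding sequences come from GENCODE M21 and promoters from RefSeq. The scripts were tested on simulated data. Alternatives were DESeq2 1.42.0, other scalings and filters, no fold threshold, 1 fit of all groups, paralogs summed, a replicate block and omitted cultures. Leaving out the most deviating culture of each group was chosen after seeing the data. The members, lists and tests were chosen with earlier results of these data known. All members were named; of other genes, the 2 closest to each member, the 2 other TRIM genes with the largest called VWF change at each time, up to 4 called genes of each list with the smallest adjusted p, and the largest sequence partners. Over 15 pairs of groups, same-numbered cultures deviated together most clearly for VWF 16 h with LPS 16 h (r 0.159 to 0.781, 4 pairs). For LPS 3.5 h with VWF 16 h every r was also positive (0.081 to 0.263). Each other pair of groups held a negative r. Cultures of a group differed by more than sampling noise in all 52 pairs. Protein sequences were not used here.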

Additional observations from a re-analysis of the deposited data

Results flagged for a closer look

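Trim21 in replicate 4 of LPS at 16 h lay far below the other 3 cultures of its group, at 19.9 FPKM against 34.1 FPKM for the nearest, a gap of 0.832 of the group's range. This was 1 of 60 gene and group combinations checked, and chance alone flags about 1 in 20. The same culture had the highest ribosomal protein share of its group (4.57%).

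Several members had a response that changed between 3.5 h and 16 h by edgeR's interaction test. For VWF, the log2 differences were -2.39 for Trim21 (adjusted p = 3.56e-08), -2.96 for Trim30c (2.03e-05), -0.85 for Trim12a (0.00979) and -0.84 for Trim25 (0.000188). For LPS, they were -1.86 for Trim30c (adjusted p = 0.00954), -1.58 for Trim21 (9.67e-05), -1.24 for Trim12c (0.0125), -0.81 for Trim12a (0.0123), -0.50 for Trim25 (0.00565) and -0.49 for Trim30d (0.0137). All of these were smaller responses at 16 h. Trim12a and Trim30c reached 10 TPM in no control culture and entered these tests through treated cultures alone.

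The course over time differed between VWF and LPS for Trim30b (log2 difference -2.80, adjusted p = 1.23e-07), Trim30c (-1.13, 0.03), Trim21 (-0.82, 0.00433) and Trim12c (0.82, 0.00803). Trim30b reached 10 TPM in LPS cultures only and entered this test through them. From 3.5 h to 16 h Trim12c had a log2 fold change of 0.59 with VWF and -0.24 with LPS.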

How the results depend on the processing

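Direction and call of the members were unchanged in 109 of 111 gene and comparison values with DESeq2, 110 with median-of-ratios factors, 108 with all groups in the fit, 108 with filterByExpr, 107 without a filter and 99 with library size scaling. With the replicate block, 110 of 111 were unchanged, the exception being Trim14 for VWF against LPS at 16 h (log2 fold change -1.05, adjusted p = 0.00774). The block moved the count of members called there from 8 to 9 and changed no other call. In the other direct comparisons between groups, some same-numbered cultures deviated in opposite directions, and the labels give them only a shared number. Of 1297 values with 1 culture left out, 1248 were unchanged.

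In what follows the 12 comparisons stand in this order: at 3.5 h each agonist against control (VWF first) and then the agonists directly, the same at 16 h, control, VWF and LPS over time, and the 3 interactions (VWF, LPS, VWF against LPS). The genes called were 1204, 2010, 856, 679, 2210, 1932, 757, 1694, 1964, 1166, 2301 and 2052. Without the fold threshold they were 3576, 5384, 3768, 2163, 4293, 4586, 3429, 5379, 4257, 2819, 4267 and 4329. With filterByExpr they were 2099, 3917, 1776, 1362, 4087, 3897, 1570, 3458, 4116, 1972, 3790 and 3576. Without a filter they were 2366, 4542, 1942, 1378, 4224, 4242, 1524, 3974, 4298, 1904, 3613 and 3528. More genes are tested, or a criterion is dropped, by construction. Library size scaling moved the median of all genes by over 0.1, to -0.22, -0.55 and 0.32 at 3.5 h, -0.59 for LPS and 0.46 for VWF against LPS at 16 h, 0.14 for the VWF interaction and 0.10 between the time courses. The share of calls that were higher went from 62.0% to 48.3%, 52.1% to 24.1% and 41.2% to 69.8% at 3.5 h, from 55.2% to 25.2% for LPS and 43.3% to 72.1% for VWF against LPS at 16 h, and from 42.8% to 56.8% between the time courses.

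The members called for VWF at 16 h numbered 2, and 5 without the fold threshold, and 4 with filterByExpr, without a filter or with all groups in the fit. For control over time they numbered 0, and 4 without the fold threshold, and 1 with DESeq2, median-of-ratios factors, filterByExpr, no filter, all groups in the fit, or without the most deviating cultures, and 0 to 1 with a culture left out. Without the fold threshold they were 4 for VWF over time and its interaction, 6 for the LPS interaction and 4 between time courses. Between time courses they were 1 without a filter or without the most deviating cultures, and 1 to 4 with a culture left out (4 without LPS 16 h replicate 4).

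With paralogs summed, 50 of 64 values were unchanged. The summed Trim30 genes lost the calls of Trim30c for VWF over time (-0.15, in place of -2.49), LPS over time (-0.038, in place of -1.39), the VWF interaction (-0.61, in place of -2.96) and the LPS interaction (-0.49, in place of -1.86), and those of Trim30b (-2.80) and Trim30c (-1.13) between time courses (-0.136). Other signs turned for uncalled members, and for Trim30b when summed. For VWF against LPS at 3.5 h, Trim14 was 0.13 with library size scaling and -0.53 to 0.20 with a culture left out. For VWF over time, Trim34a was 0.029 with library size scaling, 0.31 without the most deviating cultures and -0.25 to 0.13 with a culture left out. There Trim30a was -0.002 with filterByExpr, -0.02 without a filter, -0.15 summed and -0.026 to 0.125 with a culture left out, Trim12a was 0.32 summed, and Trim14 -0.044 to 0.583 with a culture left out. For LPS over time the summed Trim30 genes gave -0.038, in place of 0.15 for Trim30a and 1.75 for Trim30b. The LPS interaction gave -0.49 in place of 0.38 for Trim30b. For the LPS interaction Trim34a was -0.22 without the most deviating cultures and -0.14 to 0.52 with a culture left out. Between time courses, Trim12a was 0.12 with library size scaling, 0.005 with filterByExpr, 0.49 summed, 0.003 without the most deviating cultures and -0.128 to 0.068 with a culture left out. Trim30a was 0.043 and 0.01, and Trim30d 0.133 and 0.098, with library size scaling and without the most deviating cultures, and Trim30d was 0.021 with filterByExpr, 0.005 without a filter and -0.12 to 0.08 with a culture left out. The cause of these changes of sign was not tested. Depth limits Trim30b and Trim30c in control cultures, where as few as 12 and 8 counts were present.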
